A study of Mus musculus with 6 samples.

Results

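S100 genes encode small calcium-binding proteins with paired EF-hand motifs. Inside the cell they bind and regulate other proteins, among them annexins, myosin heavy chains and ubiquitin ligase adaptors, and several are also released and act on receptors such as Toll-like receptor 4 and RAGE. S100a8 and S100a9 form calprotectin, an abundant cytosolic protein of neutrophils and monocytes, while S100a4 and S100a6 are known from motile fibroblasts and leukocytes alike. The genes described here are S100a1, S100a4, S100a6, S100a8, S100a9, S100a10, S100a11 and S100a13, taken by name with every probe set annotated to 1 of them alone. This gave 10 probe sets for 7 of the 8 genes, of 18193 genes with a probe set of their own on the array. S100a11 had 1 probe set, which the annotation shares with other genes, so it was not analysed here. All 8 genes lie on mouse chromosome 3.

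Total RNA of 6 mouse samples was hybridised to 1 array each. They were 1 sample of the FDC-like line FL-Y, which carries SV40 transformation, after activation with an antibody to the lymphotoxin beta receptor; 1 of FL-Y without that antibody; 2 of follicular dendritic cells grown in vitro (FDC), stromal cells of the B cell follicle; and 2 of bone marrow-derived dendritic cells (BMDC), antigen-presenting cells. FL-Y is a single line, and the labels give no strain or age and do not say that paired arrays came from separate cultures, so the p-values below reflect array-to-array spread alone, which may be technical. In such bulk samples, fewer cells of a type and less RNA per cell cannot be told apart.

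Values are the authors' signals in array units, and the trimmed mean of each array was 500. The 20th percentile of each array lay between 8.7 and 15.4 and serves here as a mark of background level, since no detection call was used. Array medians were 47.9 in activated FL-Y, 61.1 in FL-Y, 82.5 and 79.6 on the FDC arrays, and 76.4 and 84.4 on the BMDC arrays. Labelled cell types were read against their markers. The 7 fibroblast markers summed to 79464 with activation and 99777 without it in FL-Y, 152703 and 122868 on the FDC arrays, and 6382 and 3801 on the BMDC arrays. Of the classical FDC markers, the complement receptor Cr2 had 119.5 and 4.1 on the FDC arrays, against 59.1 and 71.1 on the BMDC arrays, so that marker did not separate FDC from BMDC, and of 8 FDC markers 3 fell in FDC relative to BMDC (Mfge8, Fcgr2b and Clu) and 0 rose. The adhesion molecule Vcam1 had 6959.3 and 5764.4 on the FDC arrays, against 108.4 and 874.7 on the BMDC arrays, and did not pass by its brightest probe set (4.27, limma adjusted p = 0.0566), while another of its probe sets was called higher (3.08, adjusted p = 0.0215). The chemokine Cxcl13 was at 2.48 (adjusted p = 0.331). The 8 dendritic cell markers summed to 1011 and 1255 on the FDC arrays and 126376 and 109474 on the BMDC arrays. FDC arrays also held signal of Ptprc, the leukocyte antigen CD45 (822.9 and 422.8), which was 12.8 on the FL-Y array. The ratio of labelling to hybridisation control probe sets was 0.147 on FDC array 2 and 0.223 on BMDC array 2, against 0.0537 and 0.0484 on their first arrays. Differences within the first and within the second arrays are therefore given beside the main ones, and the part of labelling in them was not tested.

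Of the 7 members tested, 3 fell in FDC relative to BMDC and 0 rose at an adjusted p under 0.05 (limma fit across 27022 probe sets, Benjamini-Hochberg adjustment). Those that fell were S100a4, S100a8 and S100a9, while S100a1, S100a6, S100a10 and S100a13 did not pass. Among all 12750 genes tested, 5.40% were called lower and 5.87% higher. The median difference was -1.58 over the 7 members on the log2 scale, FDC minus BMDC, and -0.03 over all genes tested. At an unadjusted p under 0.05, 5 of the 7 were lower and 1, S100a6, was higher, beside 13.5% and 13.8% of all genes tested. The FDC arrays and BMDC arrays did not overlap for 6 of the 7 members, as was also the case for 59.2% of all genes tested. By probe set, 4 of 10 were called lower and 0 higher, against 4.09% and 4.84% of all probe sets tested. All 10 probe sets passed the filter on dim signal, S100a9 through the BMDC arrays alone.

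**Figure D1:**
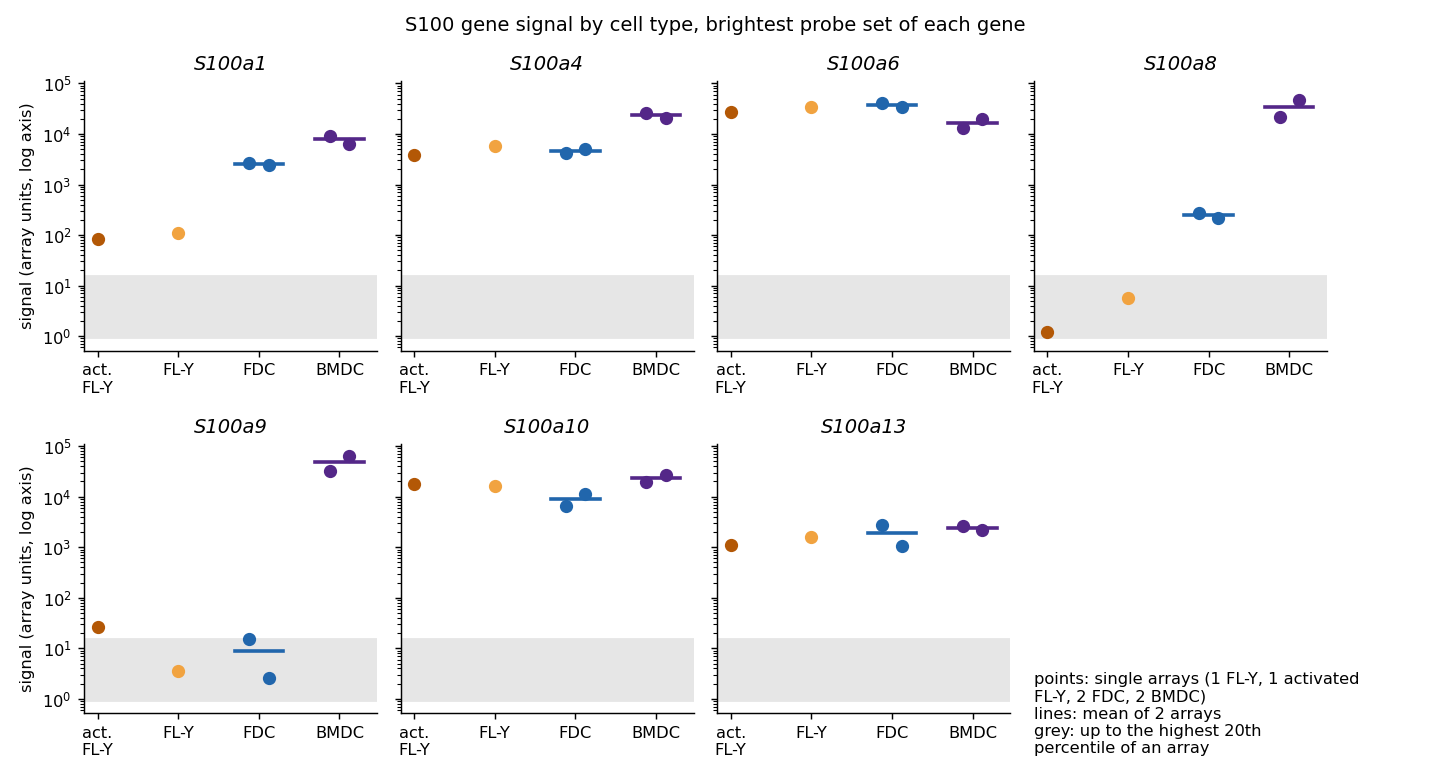
Signal of each S100 gene (array units, log axis) on single arrays of activated FL-Y, FL-Y, FDC and BMDC, by the probe set brightest over the 6 arrays; lines are means of 2 arrays, and the grey band reaches up to 15.4, the highest 20th percentile of any array. S100a8 and S100a9 ran from the band up to 46522.7 and 63836.8, while S100a4, S100a6, S100a10 and S100a13 were at 1071.3 or more on every array.

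The calprotectin genes had the largest differences among the members. S100a9 was at 25.9 in activated FL-Y and at 3.6 in FL-Y. The FDC arrays gave it 15.3 and 2.6, the BMDC arrays 32366.6 and 63836.8. Only BMDC stood clear of background level, and the FDC arrays lay far below both BMDC arrays. The difference between FDC and BMDC was -11.00 ± 0.53 on the log2 scale (SE, n = 2 each, limma adjusted p = 0.00264), and it was -10.10 for the first pair of arrays and -11.89 for the second. Its size depends on the offset, because 1 of the FDC signals was below the 20th percentile of its array and the other was just above it. It ranged from -12.69 with a floor in place of the offset to -9.55 with a larger offset, and the call held in all 13 settings.

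S100a8, the partner subunit, was not at background level in FDC. The FDC arrays gave it 267.1 and 222.2, against 21524.1 and 46522.7 on the BMDC arrays, a difference of -6.94 ± 0.50 (SE, n = 2 each, limma adjusted p = 0.00323). The differences within the first and the second arrays were -6.26 and -7.62, and the call held in all 13 settings. In activated FL-Y S100a8 had 1.2 and in FL-Y 5.7, both below the 20th percentile of their arrays. FDC thus stood between FL-Y and BMDC for S100a8, which was not the order for S100a9. The FDC signal of S100a8 came with leukocyte signal on the same arrays. The 6 macrophage markers summed to 2279 and 1281 on the FDC arrays, against 392 on the FL-Y array. The largest part of both FDC sums was Lyz2, at 1449.0 and 556.7. All of these markers but Csf1r were higher on each FDC array than in FL-Y. Csf1r had 184.7 in FL-Y, between its FDC values of 167.7 and 243.4. Itgam, an integrin chain of myeloid cells, was low in FDC as well, with 53.8 and 34.1, below the array medians. In FL-Y it was at 1.9, below the 20th percentile. The part of leukocyte RNA in the FDC signal of S100a8 was not tested.

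Granulocyte markers moved with the calprotectin genes, and so did markers of macrophages and dendritic cells. All 6 macrophage markers and 5 of 8 dendritic cell markers fell in FDC relative to BMDC, with 0 higher in either list. Of all genes tested, 5.40% were called lower. The median difference was -5.76 for granulocyte, -6.12 for macrophage and -4.91 for dendritic cell markers. Of 11 measured granulocyte markers, 9 fell and 0 rose, among them the collagenase Mmp8 (-6.20 ± 0.45, SE, limma adjusted p = 0.00332). Their summed level was 248.7 in activated FL-Y, 515.8 in FL-Y, 33386 and 2740 on the FDC arrays, and 59587 and 76909 on the BMDC arrays. Most of the sum on FDC array 1 was the siderophore-binding protein Lcn2, at 31827.5, which is not limited to granulocytes. Without a call were Lcn2 and Camp, which encodes a cathelicidin. Elane and Csf3r, among those that fell, passed the filter on dim signal through the BMDC arrays alone. Their FDC signals were 22.6 and 7.6, and 16.2 and 15.5, all below 46.4. The 2 BMDC arrays differed as well. S100a8 was 2.16-fold and S100a9 1.97-fold higher on array 2 than on array 1. The late granule genes Ngp and Ltf were 6.43-fold and 9.51-fold higher there. Mpo and Ctsg were 3.80-fold and 2.81-fold higher on array 1, while Elane and Prtn3 were 1.24-fold and 1.04-fold higher on array 2. The part of granulocytes in the BMDC signal of S100a8 and S100a9 was not tested.

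**Figure D2:**
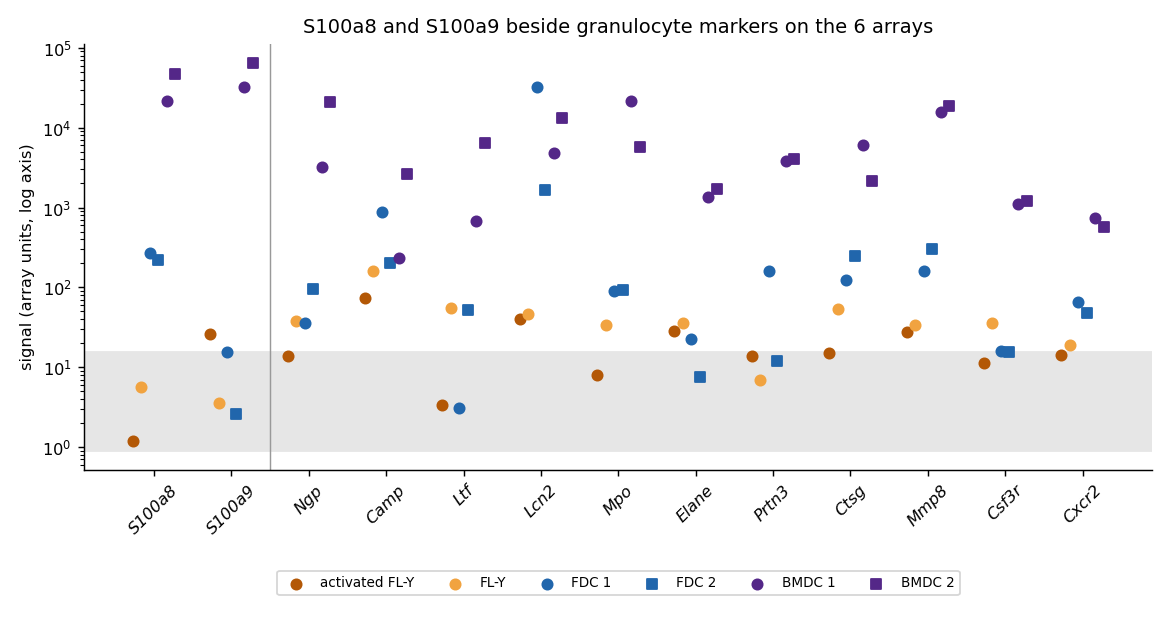
Signals (array units, log axis) of S100a8, S100a9 and the 11 measured granulocyte markers on the 6 arrays, with the grey band reaching up to 15.4, the highest 20th percentile of an array. For S100a8, S100a9, Ngp and Ltf the second BMDC array lies above the first, and for Mpo and Ctsg below it. For Elane and Prtn3 it lies only slightly above the first.

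Since S100a8 and S100a9 fell together with S100a4, the 250 bases before the annotated start of each are shown (RefSeq, GRCm38.p6, coding strand), with matches to 3 motifs in capitals. The motifs searched on both strands were a C/EBP core, TTGCNNAA, a TATA box, TATAAA, and a GC box, GGGCGG. The S100a8 window is chr3:90668821-90669070 on the plus strand, S100a9 is chr3:90695722-90695971 on the minus strand, and S100a4 is chr3:90603520-90603769 on the plus strand.
S100a8: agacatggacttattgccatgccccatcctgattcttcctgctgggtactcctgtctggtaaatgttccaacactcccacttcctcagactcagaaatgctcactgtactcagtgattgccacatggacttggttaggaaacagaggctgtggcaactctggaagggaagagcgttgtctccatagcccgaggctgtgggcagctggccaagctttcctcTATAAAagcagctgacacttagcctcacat
S100a9: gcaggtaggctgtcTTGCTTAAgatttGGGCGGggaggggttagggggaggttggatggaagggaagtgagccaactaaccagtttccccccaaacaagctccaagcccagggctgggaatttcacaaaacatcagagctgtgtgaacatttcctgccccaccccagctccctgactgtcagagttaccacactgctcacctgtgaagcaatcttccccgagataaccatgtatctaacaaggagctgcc
S100a4: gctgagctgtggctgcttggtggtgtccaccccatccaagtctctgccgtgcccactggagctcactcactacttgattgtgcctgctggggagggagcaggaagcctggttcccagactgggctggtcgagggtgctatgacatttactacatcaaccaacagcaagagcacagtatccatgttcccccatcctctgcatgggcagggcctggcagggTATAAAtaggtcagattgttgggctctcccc
TATAAA starts 30 bases before the annotated start in S100a8 and 31 bases before it in S100a4, and 12.4% of all 32851 windows of this length hold that motif. The S100a9 window holds a C/EBP core at -236 and a GC box at -223, which do not overlap and which occur in 9.56% and 32.7% of all windows. Each of these windows has 2 CpG sites, against a median of 6 over all windows, and 29.0% of all windows have 2 or fewer. A match is a description of the letters and not a site of binding.

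S100a4, known as fibroblast-specific protein and metastasin and a partner of non-muscle myosin, was lower in the stromal cells than in BMDC. It had 3814.9 in activated FL-Y, 5780.6 in FL-Y, 4172.6 and 4964.8 on the FDC arrays, and 26482.2 and 21125.0 on the BMDC arrays. Every FDC and FL-Y array lay below both BMDC arrays, and the FL-Y arrays lay on either side of the FDC range. The FDC mean was 4569 ± 560 and the BMDC mean 23804 ± 3788 (SD, n = 2 each), a difference of -2.37 ± 0.39 on the log2 scale (SE, limma adjusted p = 0.0236), with -2.66 and -2.09 within the first and the second arrays. The call was lost without any 1 array: adjusted p was 0.0758 and 0.0534 without FDC array 1 and 2, and 0.107 and 0.0774 without BMDC array 1 and 2, with differences between -2.54 and -2.21. It was also lost with no filter on dim probe sets (adjusted p = 0.0625).

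**Figure D3:**
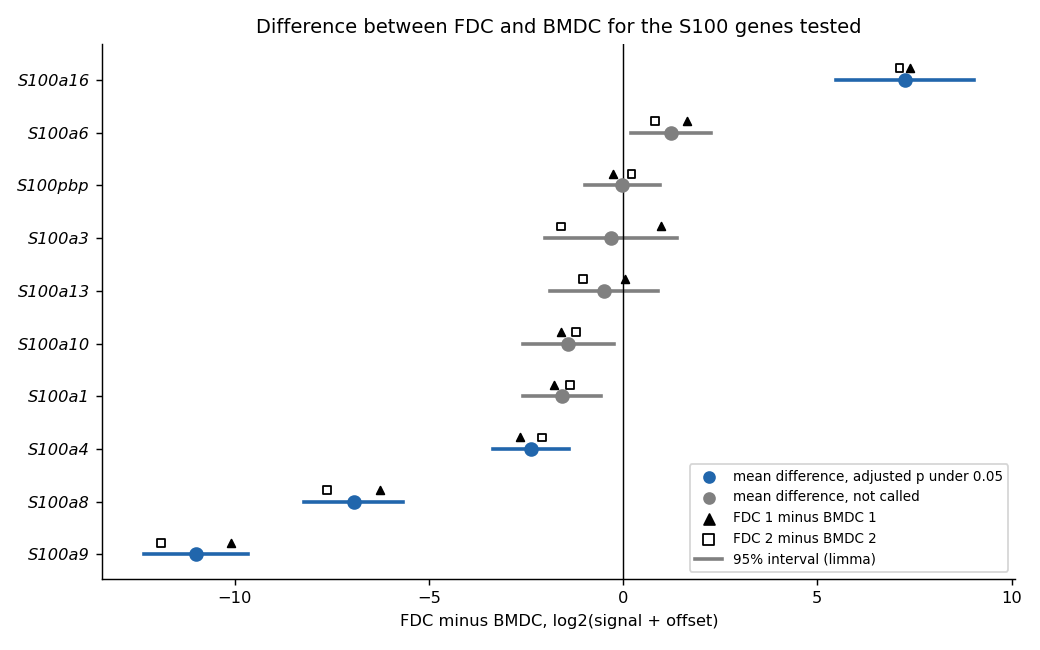
Difference FDC minus BMDC (log2 of signal plus offset) of the 7 members and of the 3 other S100-named genes that were tested, with the 95% interval from limma; triangles and squares are the differences of the first pair and of the second pair of arrays. S100a16 lies at 7.25, S100a8 at -6.94 and S100a9 at -11.00, and the remaining genes lie between -2.37 and 1.23.

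S100a6, or calcyclin, which binds the adaptor Cacybp and annexins, was the 1 member with a higher mean in FDC. The FDC arrays gave it 40523.9 and 34322.5, against 12992.7 and 19355.6 on the BMDC arrays. The FL-Y arrays were near the FDC arrays, with 26730.0 after activation and 33893.6 without it. The groups did not overlap, and the difference of 1.23 ± 0.41 (SE, n = 2 each, 95% interval 0.20 to 2.27) did not pass the threshold (limma adjusted p = 0.150). It was 1.64 within the first arrays and 0.83 within the second, and it passed only with a variance trend on intensity (adjusted p = 0.0254).

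S100a10, known as p11, which pairs with annexin A2 at the membrane, was read by 3 probe sets. The brightest, 1416762_at, had 6433.6 and 11451.6 on the FDC arrays and 19703.6 and 26523.0 on the BMDC arrays, a difference of -1.41 ± 0.46 (SE, n = 2 each, limma adjusted p = 0.144). Probe set 1456642_x_at gave -2.13 ± 0.42 and was called lower (adjusted p = 0.0397), and the dim 1439348_at gave -1.12 ± 0.40 (adjusted p = 0.173). The probe sets had the same sign and disagreed on the call, and the mean over the 3 was called lower (-1.55, adjusted p = 0.0367). With a variance trend on intensity the brightest was called lower too (adjusted p = 0.0420). FL-Y had more signal than FDC on each of them. The FL-Y array had 16541.0 on 1416762_at and 4164.0 on 1456642_x_at, where the FDC arrays reached no more than 11451.6 and 1701.8.

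S100a1, best known from heart muscle and neurons, was lowest in FL-Y, between in FDC and highest in BMDC, with no overlap of arrays. Its probe set 1419814_s_at had 85.4 in activated FL-Y, 107.5 in FL-Y, 2651.5 and 2471.2 on the FDC arrays, and 9165.1 and 6396.6 on the BMDC arrays. The other probe set, 1417421_at, gave the same order with 23.0, 56.9, 1743.0 and 1247.0, and 5098.5 and 2560.1. FDC differed from BMDC by -1.58 ± 0.40 (SE, n = 2 each, 95% interval -2.58 to -0.57, limma adjusted p = 0.0788), with -1.78 and -1.37 within the first and the second arrays. The difference passed with a larger offset (adjusted p = 0.0420) and with a variance trend on intensity (0.0211). FL-Y was lower than the mean of the FDC arrays by a log2 difference of -4.40 on the first probe set and -4.39 on the other. With 1 FL-Y array, that difference has no replicate check.

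S100a13, which takes part in the release of fibroblast growth factor 1, differed least between cell types. It had 1086.3 in activated FL-Y, 1592.4 in FL-Y, 2733.6 and 1071.3 on the FDC arrays, and 2635.6 and 2202.0 on the BMDC arrays. The FDC arrays were 2.55-fold apart and enclosed both BMDC arrays and both FL-Y arrays. The difference FDC minus BMDC was -0.49 ± 0.55 (SE, n = 2 each, 95% interval -1.89 to 0.91, limma adjusted p = 0.662). It was 0.05 within the first arrays and -1.03 within the second, and it turned to 0.18 without FDC array 2, which leaves its direction unsettled.

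S100a1 and S100a13 are transcribed away from each other, on opposite strands, and the outer bounds of the annotated genes overlap by 98 bases because that of S100a13 lies before the start used here. The 250 bases before each start are shown because the neighbours differed in how far FL-Y lay from FDC. Capitals mark the 104 bases that the windows share (chr3:90514331-90514434), read on opposite strands (RefSeq, GRCm38.p6). The S100a1 window is chr3:90514331-90514580 on the minus strand and the S100a13 window is chr3:90514185-90514434 on the plus strand.
S100a1: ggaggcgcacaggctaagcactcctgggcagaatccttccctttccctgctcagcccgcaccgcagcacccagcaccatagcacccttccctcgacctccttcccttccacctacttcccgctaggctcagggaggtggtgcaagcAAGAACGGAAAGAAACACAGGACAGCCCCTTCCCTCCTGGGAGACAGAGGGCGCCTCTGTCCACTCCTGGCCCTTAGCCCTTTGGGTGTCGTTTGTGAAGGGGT
S100a13: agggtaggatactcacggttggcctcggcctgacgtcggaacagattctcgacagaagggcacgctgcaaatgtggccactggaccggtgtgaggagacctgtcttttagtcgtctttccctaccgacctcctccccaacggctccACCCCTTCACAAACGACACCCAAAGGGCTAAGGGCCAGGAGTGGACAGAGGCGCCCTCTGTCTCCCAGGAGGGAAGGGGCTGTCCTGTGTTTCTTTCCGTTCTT
These windows hold 8 and 13 CpG sites and none of the 3 motifs. The level of S100a1 on the FL-Y array relative to the FDC mean was -4.40 on the log2 scale, whereas that of S100a13 was -0.10.

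FL-Y was then set against FDC and BMDC gene by gene, as a description, because FL-Y had 1 array. At a margin of 2-fold outside both FDC arrays, FL-Y was lower for 2 of the 7 members, S100a1 and S100a8, and higher for 0. Of all genes tested, 14.8% were lower and 8.31% higher by this measure. Against both BMDC arrays, FL-Y was lower for 4 members, S100a1, S100a4, S100a8 and S100a9, and higher for 0, beside 19.7% and 14.4% of all genes tested. S100a6 was above both BMDC arrays by 0.81 on the log2 scale, under the 2-fold margin. It passed that margin without BMDC array 2 or after rescaling to one median, which makes 5 members, and S100a10 passed it against FDC without FDC array 2 or with the mean of its probe sets, which makes 3. Rescaling all arrays to one median gave a median over all genes tested of 0.25 for FL-Y minus the FDC mean, in place of -0.13. Under it the S100a6 difference was 0.27 in place of -0.14 and that of S100a13 was 0.30 in place of -0.10.

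Activation through the lymphotoxin beta receptor, which drives lymphoid stroma, left S100a1, S100a4, S100a6, S100a10 and S100a13 within 2-fold by their brightest probe sets. The differences, activated FL-Y minus FL-Y, were -0.60 for S100a4, -0.55 for S100a13, -0.34 for S100a6, -0.29 for S100a1 and 0.09 for S100a10. By brightest probe set, only S100a9 was past 2-fold (1.17), and its signals there, 25.9 and 3.6, were near background level. With a larger offset it was at 0.48 and the count past 2-fold was 0. With a floor it was at 2.85, with quantile normalization at 1.62 and after rescaling at 1.53, and the count was 1 in each. Of all genes tested, 2.71% were at least 2-fold higher and 5.86% at least 2-fold lower. The other S100a1 probe set, 1417421_at, had 23.0 in activated FL-Y and 56.9 in FL-Y, 0.404-fold in signal and -0.93 with the offset. For S100a10 the probe sets disagreed. Probe set 1456642_x_at had 8457.9 in activated FL-Y and 4164.0 in FL-Y, 2.03-fold, while 1416762_at was 1.06-fold and 1439348_at 1.17-fold. Of all probe sets tested, 9.47% were at least 2-fold apart. Rescaling to one median gave a median over all genes tested of 0.28 in place of -0.05, and under it S100a6 was at 0.01, S100a1 at 0.02 and S100a4 at -0.25. These differences have no replicate check.

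**Figure D4:**
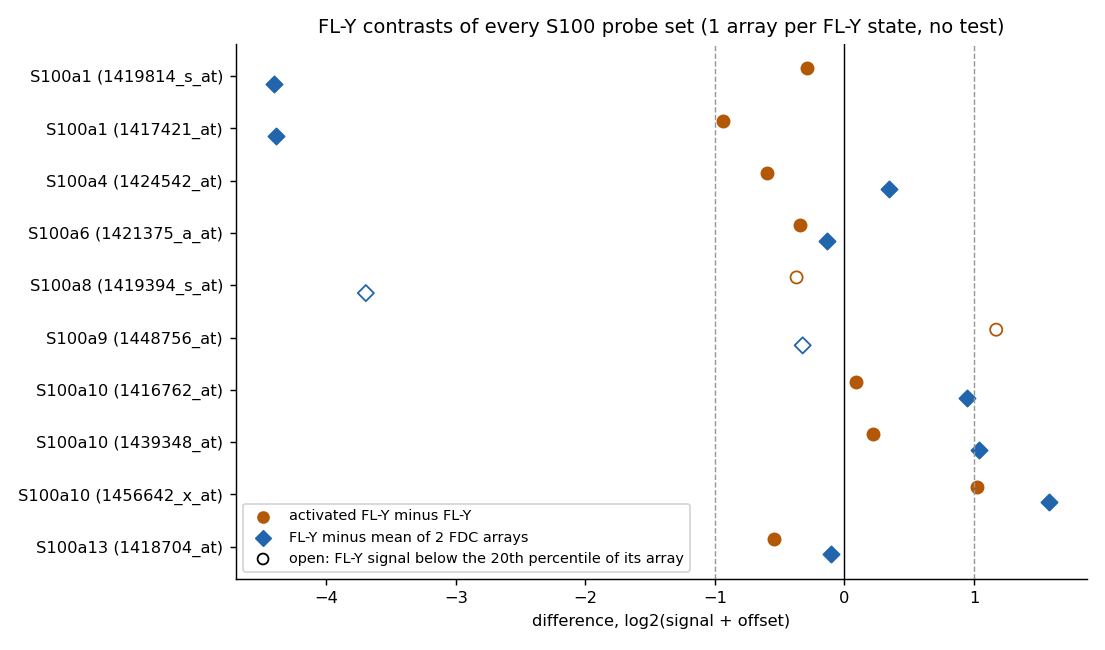
Log2 differences of all 10 S100 probe sets between activated FL-Y and FL-Y (circles) and between FL-Y and the mean of the 2 FDC arrays (diamonds), with dashed lines at 2-fold and open symbols where the FL-Y signal was below the 20th percentile of its array. The S100a1 diamonds sit near -4.4, and the x_at probe set of S100a10 has the only filled circle past 2-fold.

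Of 7 other S100-named genes measured, 3 were tested, and 1 of them, S100a16, rose in FDC, beside 5.87% of all genes tested. S100a16, an S100 protein of many epithelial and mesenchymal tissues, had 700.3 in activated FL-Y, 1202.6 in FL-Y, 8817.6 and 3052.0 on the FDC arrays, and 38.5 and 8.0 on the BMDC arrays. Its difference, FDC minus BMDC, was 7.25 ± 0.70 (SE, n = 2 each, limma adjusted p = 0.00577), with 6.18 on its other probe set (adjusted p = 0.0145). Its size depends on the offset, as 1 of the BMDC signals was below the 20th percentile of its array. It was 8.21 with a floor and 6.15 with a larger offset, and the call held in all 13 settings, which were run for S100a16 after seeing the data. S100a16 passed the filter on dim signal through the FDC arrays alone, as both BMDC signals were below 46.4. Every stromal array was above both BMDC arrays, the reverse of S100a8 and S100a9. S100a3 (-0.31, adjusted p = 0.830) and S100pbp, a nuclear partner of S100P in human cells (-0.02, adjusted p = 0.982), did not pass, and S100a5, S100a14, S100b and S100g were too dim to be tested.

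Annexins are bound by several S100 proteins. Of 10 tested, 1 fell in FDC relative to BMDC, 0 rose and 9 did not pass, with a median difference of -0.12. That count is near the share of all genes tested, 5.40% called lower and 5.87% higher. Anxa4 fell by 2.46 on the log2 scale (SE 0.39, limma adjusted p = 0.0219), with 4184.8 and 4383.0 on the FDC arrays and 27677.0 and 20244.7 on the BMDC arrays. Anxa2, the partner of S100a10, had 29383.1 and 43109.7 on the FDC arrays and 33622.6 and 39068.2 on the BMDC arrays, a difference of -0.03 ± 0.41 (adjusted p = 0.978). Anxa1 was at -0.06 (adjusted p = 0.945), Anxa3 at 0.21 (0.822) and Anxa5 at -0.56 (0.521).

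Of 8 S100 receptor genes tested, 2 fell in FDC relative to BMDC and 0 rose, with a median difference of -0.88. Among all genes tested, 5.40% were called lower and 5.87% higher. The scavenger receptor Cd36, which takes up fatty acids, had 74.2 and 73.1 on the FDC arrays and 30018.4 and 18288.4 on the BMDC arrays (-8.06 ± 0.43, SE, limma adjusted p = 0.00264), and the endotoxin co-receptor Cd14 was at -3.03 ± 0.58 (adjusted p = 0.0369). Tlr4 itself had 793.9 and 476.2 on the FDC arrays and 1391.7 and 1793.0 on the BMDC arrays and did not pass (-1.34, adjusted p = 0.144). Bsg, or basigin, which binds S100A9 in human cells, was at 1.26 (adjusted p = 0.110), and Ager, the RAGE gene, was too dim to be tested. Of 10 intracellular partners tested, 1 rose, near the 5.87% of all genes tested, and 0 fell, with a median difference of -0.17. Myh10, a non-muscle myosin heavy chain, had 1041.0 and 1664.2 on the FDC arrays and 9.1 and 39.9 on the BMDC arrays (5.23 ± 0.56, adjusted p = 0.00734). It passed the filter on dim signal through the FDC arrays alone. The myosin Myh9 was at -0.12 (adjusted p = 0.892). Cacybp, the calcyclin-binding protein, was at -0.24 (adjusted p = 0.768), and its signal was 10196.0 in activated FL-Y and 8725.0 in FL-Y, above the 2628.8 and 3413.6 on the FDC arrays.

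The genes most like each member were ranked by the root mean square difference of centred log2 values over the 6 arrays, as a description. For S100a8 they were Ccl6 (0.38) and Fcer1g (0.53), and for S100a9 Retnla (0.87) and Clec4n (0.97). Ccl6, like S100a8, had an intermediate FDC signal, with 629.5 and 231.4 on the FDC arrays and 31865.7 and 53721.8 on the BMDC arrays. For S100a4 they were Card19 (0.13) and Apobr (0.17), and for S100a1 Zdhhc14 (0.47) and Cd274 (0.49). For the others they were Manbal (0.09) and Zfp184 (0.10) for S100a6, Six2 (0.09) and Limd2 (0.13) for S100a10, and Selenoo (0.12) and Btn1a1 (0.14) for S100a13. Centring leaves out the level, and Zfp184 (29.5 to 100.8), Six2 (13.7 to 117.9) and Btn1a1 (22.7 to 82.9) were dim. Between members, S100a8 and S100a9 were 1.99 apart, and the closest pair was S100a4 and S100a10 at 0.85.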

How the data were processed

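The authors deposited linear intensity values of 45101 probe sets, 64 of them controls. Their trimmed mean of 500 on each array was read from the values, and the program used is not stated in the labels. By the platform annotation 34945 probe sets had 1 gene, 932 several and 9160 none, and only the first kind was named. A gene with several probe sets was read by the one brightest on average over the 6 arrays. Values were log2(signal + 14.2), the offset being the median 20th percentile of the arrays, which understates changes of dim genes. The 27022 probe sets above the 40th percentile of mean FDC and BMDC signal (46.4) were tested with limma 3.58.1 in R 4.3.3, two-sided, with 2 residual and 3.35 prior degrees of freedom, and adjusted together. By exact permutation, 2 arrays against 2 reach no p under 0.333. FL-Y was described without a test. Named genes are the members and the 2 genes nearest to each member. Others were drawn from up to 6 called and 4 other genes by mean log2 level of each S100-related list. From each marker list they were drawn from 3 by the same level. Not every gene within these limits is named. Mpo, Ctsg, Ngp, Ltf, Elane, Prtn3, Csf3r, Itgam, Cr2, Clu, Cxcl13, Ager and Cacybp, and S100b and S100g, were named after their values were seen. Members, lists and settings were chosen with earlier results of these data known.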

Additional observations from a re-analysis of the deposited data

How the results depend on the processing

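The settings were a floor in place of the offset, a larger offset, quantile normalization, rescaling to one median, the mean of all probe sets of a gene, no filter, a variance trend on intensity, each array left out, and the replicate number as a block. With the floor, quantile normalization and rescaling 3 members were lower and 0 higher, as in the reported fit, and the variance trend gave 5 lower (S100a1 and S100a10 added) and 1 higher (S100a6). Without any 1 array, 2 were lower and 0 higher, S100a4 being lost. Without filter 2 were lower, with the larger offset 4 and with the mean of probe sets 4. S100a13 ranged from -1.16 to 0.18 when 1 array was left out. With 1 FDC array left out, FL-Y stood at least 2-fold outside FDC for 2 to 3 members, and with 1 BMDC array left out, outside BMDC for 4 to 5. The activation count of 1 past 2-fold was 0 with the larger offset. Over all genes, 748 rose and 688 fell in the reported fit, against 464 and 414 with the floor, 436 and 393 with no filter, 486 and 474 without FDC array 1, 452 and 350 without BMDC array 1, and 419 and 350 without BMDC array 2. The cause was not tested. The labels do not say that equal replicate numbers share a source, and deviations of same-numbered FDC and BMDC arrays correlated at r = 0.199 across probe sets; with the replicate block 3 members were lower and 0 higher, with adjusted p of 0.0412 for S100a4, 0.0131 for S100a8 and 0.0129 for S100a9. Signals near the 20th percentile of an array limit what can be said of S100a9 outside BMDC and of S100a8 in FL-Y.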

Other observations

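Neighbouring S100 genes on mouse chromosome 3 did not share one pattern between FDC and BMDC. In annotated order, the log2 difference FDC minus BMDC was -1.58 for S100a1, -0.49 for S100a13, 7.25 for S100a16 (6.15 to 8.21 over the settings tried), -0.31 for S100a3, -2.37 for S100a4, 1.23 for S100a6, -6.94 for S100a8, -11.00 for S100a9 and -1.41 for S100a10, leaving out the genes that were not measured or too dim to be tested. Of these, S100a16, S100a4, S100a8 and S100a9 passed the threshold in the limma fit. S100a16 thus lies in the same cluster as the genes of calprotectin and had the opposite sign. Among the markers of other cell types, the 3 keratinocyte markers summed to 142.0 in activated FL-Y, 187.7 in FL-Y, 214.4 and 242.7 on the FDC arrays and 254.5 and 258.7 on the BMDC arrays, and the glial factor Sox10 had 130.5 and 41.1 on the FDC arrays and 50.8 and 153.6 on the BMDC arrays. The 4 mast cell markers summed to 5091 and 6080 on the FDC arrays and 2786 and 524.2 on the BMDC arrays. Most of the BMDC sum was Cpa3, at 2620.8 and 395.6, which was not called, and the other 3 were called higher in FDC. The T cell markers summed to 1537 and 900.0 on the FDC arrays and 177.2 and 29.1 on the BMDC arrays.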
